A study of Rattus norvegicus with 6 samples.

Results

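The 10 tetraspanin genes described here were chosen by symbol, and all 10 were among the 17648 genes of the expression matrix. They were CD9, CD53, CD63, CD81, CD82, CD151, TSPAN2, TSPAN3, TSPAN6 and TSPAN7. The libraries were made from cultured cells labelled as neurons, taken from the spinal cord of neonatal Sprague-Dawley rats. They were grown for 3 days before the glutamate step of the protocol. Ara-C, a drug that kills dividing cells, was added after plating to enrich neurons. The Glu + siR-Con group held 3 libraries from cells given a control transfection, and the Glu + siR-GAL3 group held 3 from cells in which GAL3, the lectin galectin-3, was targeted by small interfering RNA (siRNA). The paper and the design text have glutamate given to both groups, and the culture protocol gives 10 μM for 1 h and then 16 h without it. The sample labels instead list saline for the control libraries and a knockout of GAL3 for the others. The libraries were grouped by their titles, control or experimental. If the labels were right, glutamate and the siRNA could not be told apart. Nothing stated that the replicates were separate cultures, so p-values measure only the spread between these libraries, which may be technical.

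Tetraspanins are small multi-pass membrane proteins that bind one another and their partner receptors sideways in the membrane. The patches they form, called tetraspanin-enriched microdomains, gather integrins, immunoglobulin-superfamily proteins and membrane proteases. CD9, CD63 and CD81 are also used as markers of extracellular vesicles, the membrane particles that cells release. In the nervous system several tetraspanins are known from glia, CD9 and TSPAN2 from myelin-forming cells and CD53 from microglia and other leukocytes, whereas TSPAN7 is known from neurons.

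Levels are linear expression values that the authors derived from FPKM, a read count divided by transcript length and library size, so genes of different length can be set side by side. After the authors' corrections the column totals lay between 64313 and 64714 and sequencing depth is unknown. None of the 10 genes had a value below 0, although 3.86% of all values did. The target, listed as LGALS3, stood at 77.4, 54.4 and 62.4 in the siR-Con libraries and at -1.64, 32.3 and 18.5 in the siR-GAL3 libraries, with replicates 1, 2 and 3 in that order here and for each gene. It was lower in each siR-GAL3 library (limma, log2 fold change -2.91, adjusted p = 0.571). The size rested on siR-GAL3 replicate 1, whose value below 0 was set to 0 for the fit, since without it the log2 fold change was -1.35. Exactly equal values divided the libraries into 3 sets, with replicate 1 of both groups in the first and replicate 3 of both groups and replicate 2 of siR-Con in the second. The remaining library, siR-GAL3 replicate 2, shared between 238 and 264 equal values with any other, against at least 1312 within a set. Results are therefore also given without it.

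The labelled cell type was checked against marker genes. RBFOX3, which encodes the neuronal nuclear protein NeuN, had a mean of 0.396 ± 0.0172 (SD, n = 3) in siR-Con and 0.369 ± 0.0652 (SD, n = 3) in siR-GAL3. The summed level of the 9 neuron markers listed lay between 32.8 and 37.7 in siR-Con and between 30.6 and 37.7 in siR-GAL3, with MAP2 the highest, and 4 of the 9 were under 1 in every library. Glial markers were much higher. The 8 oligodendrocyte markers, led by MBP, summed to between 1069 and 1132 in siR-Con and between 1076 and 1399 in siR-GAL3. The 8 astrocyte markers, led by GFAP, summed to between 848.3 and 994.7 in siR-Con and to between 735.3 and 789.5 in siR-GAL3. The levels of tetraspanins given here are therefore those of RNA with strong glial transcripts. Markers of oligodendrocyte progenitors summed to between 69.8 and 78.3 in siR-Con and 41.2 and 84.4 in siR-GAL3, with a GPR17 value of -7.25 in siR-GAL3 replicate 2 set to 0, those of Schwann cells to between 35.6 and 36.4 and 33.2 and 40.5, those of fibroblasts to between 43.05 and 50.6 and 33.03 and 38.1, and those of endothelial cells to between 1.06 and 1.24 and 1.10 and 1.18. In such bulk RNA, fewer cells of a type and less RNA per cell cannot be told apart.

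**Figure D1:**
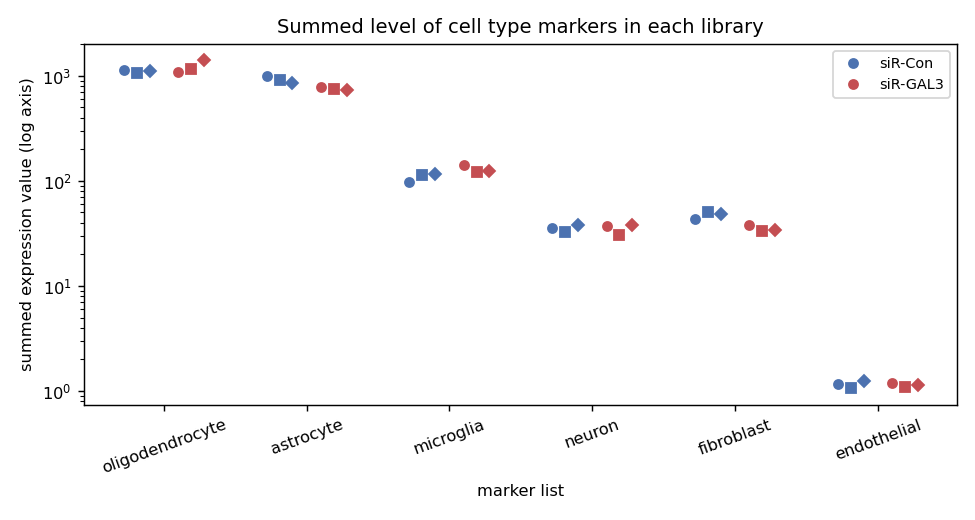
Summed expression value (log axis) of the marker genes of 6 cell types, with 1 point per library (blue, siR-Con; red, siR-GAL3; circle, square and diamond, replicates 1, 2 and 3). Oligodendrocyte and astrocyte markers were the highest, neuron markers stayed between 30.6 and 37.7, and microglia markers were higher in each siR-GAL3 library than in each siR-Con library.

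Tetraspanin levels spanned a wide range. The mean over the 6 libraries was 85.5 for CD81, 60.9 for CD63, 43.02 for CD9, 30.7 for TSPAN2, 23.7 for TSPAN7, 21.3 for TSPAN3, 5.53 for TSPAN6, 3.81 for CD53, 3.72 for CD82 and 0.0829 for CD151. The ranges over the libraries did not overlap between CD81, CD63, CD9, TSPAN2 and TSPAN7, taken in that order. TSPAN7 and TSPAN3 overlapped in range, but TSPAN7 was above TSPAN3 in 6 of 6 libraries. CD53 and CD82 could not be ordered, since CD53 was the higher of the pair in 3 of 6 libraries. Over all libraries the 10 genes summed to between 267.9 and 288.5.

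CD9, which organises adhesion receptors and marks vesicles, was 41.6, 42.1 and 40.03 in siR-Con. In siR-GAL3 it was 45.1, 44.1 and 45.2. Each siR-GAL3 library lay above each siR-Con library, and the group means were 41.3 ± 1.09 and 44.8 ± 0.603 (SD, n = 3 each), a difference of 8.56%. On the log2(value + 1) scale used for all tests, CD9 had a log2 fold change of 0.12 in limma, with a 95% interval from -0.03 to 0.26. The unadjusted p was 0.104 and the Benjamini-Hochberg adjusted p over all genes fitted was 0.589, so CD9 did not pass the test. Without siR-GAL3 replicate 2 the log2 fold change was 0.13 (limma, adjusted p = 0.281).

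**Figure D2:**
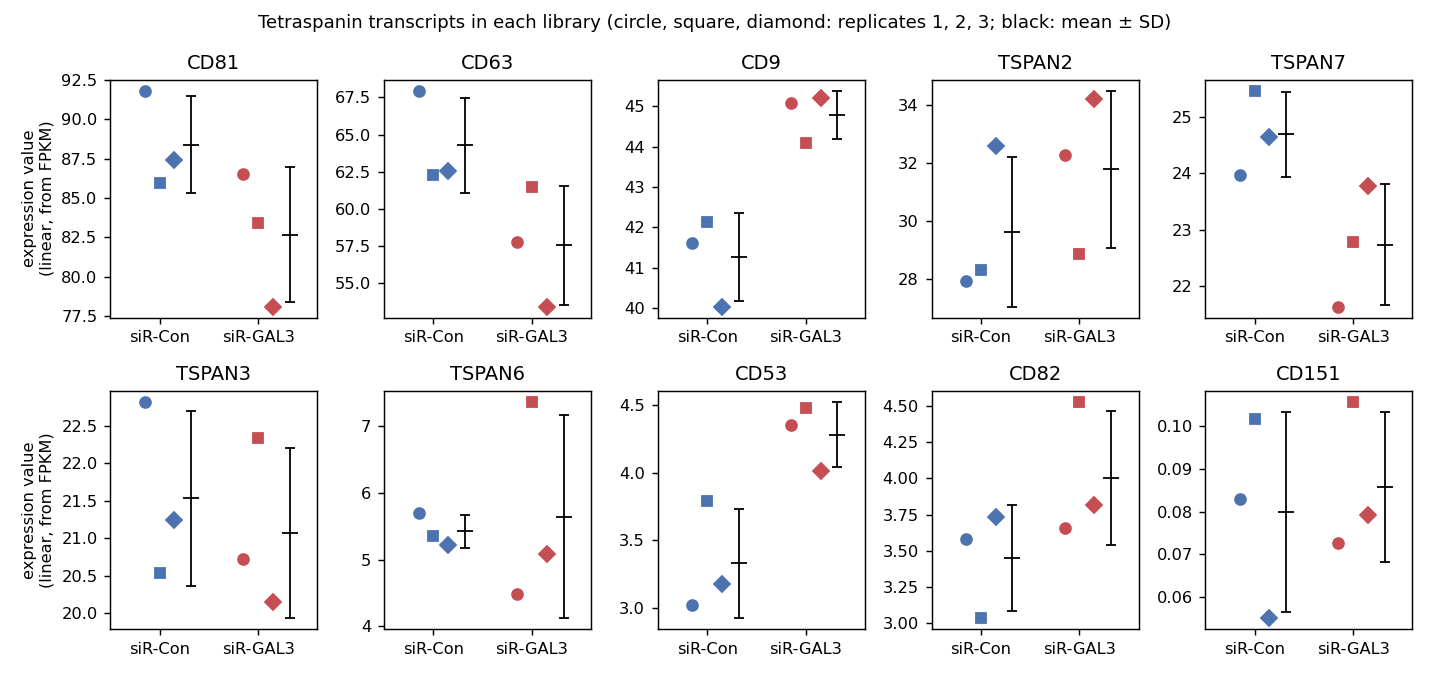
Expression value (linear, derived from FPKM) of the 10 tetraspanins in each library, with a separate axis per gene that does not start at 0. Blue points are siR-Con and red points siR-GAL3, and black marks give the group mean ± SD. The groups were apart for CD9 and CD53 (siR-GAL3 higher) and for CD63 and TSPAN7 (siR-GAL3 lower).

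CD81, a close relative of CD9 that binds the same immunoglobulin-superfamily proteins, had a log2 fold change of the opposite sign. It was 91.8, 85.9 and 87.4 in siR-Con, and 86.5, 83.4 and 78.1 in siR-GAL3. The groups overlapped, because siR-GAL3 replicate 1 lay above siR-Con replicate 2. Its log2 fold change was -0.10 (limma, standard error 0.07, adjusted p = 0.624), and -0.06 without siR-GAL3 replicate 3.

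CD63 is a tetraspanin of late endosomes and lysosomes that reaches the cell surface and vesicles when these compartments fuse with the plasma membrane. It was 67.97, 62.3 and 62.6 in siR-Con and 57.8, 61.5 and 53.4 in siR-GAL3. Every siR-GAL3 library was below every siR-Con library, but siR-GAL3 replicate 2 was close to the lowest control. The means were 64.3 ± 3.19 and 57.5 ± 4.02 (SD, n = 3 each), a difference of -10.5%. The log2 fold change was -0.16 in limma, with a 95% interval from -0.35 to 0.03, an unadjusted p of 0.0879 and an adjusted p of 0.585. Without siR-GAL3 replicate 2 it was -0.21 (limma, unadjusted p = 0.0135, adjusted p = 0.177). Most markers of astrocytes and fibroblasts had log2 fold changes below 0, as CD63 and CD81 had. Of the 8 astrocyte markers 6 had a log2 fold change below 0, with a median of -0.19 and 4 lower at an unadjusted p under 0.05 in limma, against 4.25% of all genes fitted. That number was 1 without siR-Con replicate 2, siR-Con replicate 3 or siR-GAL3 replicate 3. It was 3 without siR-Con replicate 1 and 4 without siR-GAL3 replicate 1 or 2. Over these fits between 4.05% and 16.3% of all genes had such a p in either direction. Of the 5 fibroblast markers fitted 4 were below 0, with a median of -0.42 and 3 lower at an unadjusted p under 0.05, and COL1A1, a collagen chain, was the highest. None of either list had an adjusted p under 0.05, and their part in the CD63 and CD81 values was not tested.

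CD53, a tetraspanin of leukocytes, had the largest log2 fold change of the 9 genes fitted. It was 3.02, 3.79 and 3.18 in siR-Con, and 4.35, 4.48 and 4.01 in siR-GAL3. The groups did not overlap, and the mean went from 3.33 ± 0.404 to 4.28 ± 0.241 (SD, n = 3 each), a difference of 28.6%. Its log2 fold change of 0.29 had a 95% interval from 0.08 to 0.50 in limma, an unadjusted p of 0.0126 and an adjusted p of 0.415. The unadjusted p was above 0.05 without siR-Con replicate 1 (0.0523) or siR-Con replicate 3 (0.0504), both from limma.

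Markers of microglia were higher beside CD53. All 9 microglia markers fitted had a log2 fold change above 0, with a median of 0.27, and 5 of the 9 had an unadjusted p under 0.05 in limma, against 4.41% of all genes fitted that were higher at that level. The shared direction rested on the libraries numbered 1. Without siR-Con replicate 1 the median was 0.17, and without siR-GAL3 replicate 1 it was 0.20. In each of these fits 6 of 9 were above 0 and 3 had an unadjusted p under 0.05 in limma. Of all genes fitted 6.09% and 14.7% had one, in either direction. None of the 9 markers had an adjusted p under 0.05 over all 6 libraries. AIF1, PTPRC and ITGAM, named here after their values were seen, had one without siR-GAL3 replicate 2 (0.0169, 0.0183 and 0.0417 in limma). That was 3 of 9, against 1.97% of all genes fitted. With a block for library set AIF1 and PTPRC had one (0.0196 and 0.0237 in limma), 2 of 9 against 1.25%. That block also takes siR-GAL3 replicate 2, alone in its set, out of the group comparison, so it is no separate check. The 10 markers summed to between 96.8 and 116.7 in siR-Con and between 121.4 and 140.3 in siR-GAL3. C1QC, a complement subunit, was the highest of them by level. Over all libraries AIF1, which encodes the microglial protein IBA1, had a log2 fold change of 0.57, PTPRC, which encodes the leukocyte protein CD45, 0.43, and ITGAM, an integrin chain of myeloid cells, 0.36. TMEM119 was under 1 in every library. The part of these markers in the CD53 and CD9 differences was not tested.

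CD82, a tetraspanin that restrains cell migration, was 3.58, 3.04 and 3.74 in siR-Con and 3.66, 4.53 and 3.81 in siR-GAL3. The groups overlapped, and the highest value came from siR-GAL3 replicate 2. The log2 fold change of 0.17 (limma, adjusted p = 0.590) was 0.09 without that library. CD151, which binds laminin-binding integrins, was between 0.0551 and 0.106 in all 6 libraries. It was too low for the main fit, which took genes with a mean of at least 1, so 9 of the 10 genes were tested. In the fit over all 17648 genes, without this filter, its log2 fold change was 0.01 (limma, adjusted p = 0.890).

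TSPAN2, known for its part in the maturation of oligodendrocytes, was 27.9, 28.3 and 32.6 in siR-Con and 32.3, 28.8 and 34.2 in siR-GAL3. The groups overlapped, and within each group the libraries differed by more than the group means did (29.6 ± 2.58 and 31.8 ± 2.72, SD, n = 3 each). The log2 fold change was 0.10 (limma, adjusted p = 0.657). Single libraries moved it, to 0.05 without siR-GAL3 replicate 3, 0.06 without siR-Con replicate 1, 0.16 without siR-GAL3 replicate 2 and 0.17 without siR-Con replicate 3. The 8 oligodendrocyte markers had a median log2 fold change of 0.04, with 4 above and 4 below 0, and none had an unadjusted p under 0.05 in limma. Their median without siR-GAL3 replicate 2 was 0.14, with 7 of 8 above 0 and again none at an unadjusted p under 0.05. Their part in the TSPAN2 values was not tested. TSPAN3, which binds the oligodendrocyte tight-junction protein claudin-11, lay between 20.5 and 22.8 in siR-Con and between 20.1 and 22.3 in siR-GAL3, with a log2 fold change of -0.03 (limma, standard error 0.07). Its sign turned to above 0 without siR-Con replicate 1 (0.011) or siR-GAL3 replicate 3.

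TSPAN7, a neuronal tetraspanin linked to the trafficking of AMPA-type glutamate receptors, was 23.96, 25.5 and 24.7 in siR-Con. It was 21.6, 22.8 and 23.8 in siR-GAL3, so the groups did not overlap, but the gap between them was small. The means were 24.7 ± 0.758 and 22.7 ± 1.08 (SD, n = 3 each), a difference of -7.98%. The log2 fold change was -0.12 in limma, with a 95% interval from -0.28 to 0.05 and an adjusted p of 0.590. The 5 neuron markers fitted had a median log2 fold change of 0.04, with 3 above 0. In limma 1 of them had an unadjusted p under 0.05, against 8.66% of all genes fitted. Their median without siR-GAL3 replicate 2 was 0.15, with 4 of 5 above 0 and 2 at an unadjusted p under 0.05 in limma, against 16.3%. Without siR-GAL3 replicate 3 it was -0.08, with 3 of 5 below 0. TSPAN7 was -0.12 in the first of these fits and -0.15 in the second. The mean of TSPAN7 over the 6 libraries, 23.7, was above that of MAP2, 16.9, the highest neuron marker listed. The 8 astrocyte markers, given above beside CD63, had a median log2 fold change of -0.19, with 6 below and 2 above 0. The part of the neuron or astrocyte markers in the TSPAN7 values was not tested. TSPAN6, a tetraspanin of endosomes, was 5.70, 5.35 and 5.22 in siR-Con and 4.48, 7.36 and 5.09 in siR-GAL3. Its direction rested on siR-GAL3 replicate 2, since the log2 fold change was 0.03 with that library and -0.15 without it (limma, adjusted p = 0.944 and 0.289).

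Of the 9 tetraspanins fitted, none had an adjusted p under 0.05 in limma, against 0.0% of the 8495 genes fitted. At an unadjusted p under 0.05 there was 1 of 9, CD53, against 8.66% of all genes fitted (736 genes). The groups did not overlap for 4 of 9, CD9, CD53, CD63 and TSPAN7, against 20.5% of all genes fitted. CD9 and CD53 were higher in siR-GAL3 and CD63 and TSPAN7 lower, against 10.3% in each direction. Without siR-GAL3 replicate 2, CD9, CD53, CD63 and TSPAN6 had an unadjusted p under 0.05 in limma, 4 of 9 against 16.3% of all genes fitted, and no adjusted p was under 0.05, against 1.97%. Without the filter CD9 (0.0489) and CD53 had an unadjusted p under 0.05 in limma, 2 of 10 against 9.2% of all genes. Their adjusted p values were then 0.538 and 0.412. For none of these could the exact permutation test of 3 against 3 give a two-sided p below 0.1. Over the 9 genes 5 log2 fold changes were above 0 and 4 below, with a median of 0.03 (4 above and 5 below, with a median of -0.07, without siR-GAL3 replicate 2), and over all genes fitted 4247 were above and 4248 below. None had an absolute log2 fold change above 1, which the paper asks for beside a nominal p in other, downloaded datasets, and 0.318% of all genes fitted met both criteria. The 95% intervals of the 9 genes ran from -0.35 at the lowest to 0.50 at the highest, so a log2 fold change of 1 in either direction lay outside each of them. These intervals measure only the spread between these libraries that the authors' adjustment left, on the log2(value + 1) scale.

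**Figure D3:**
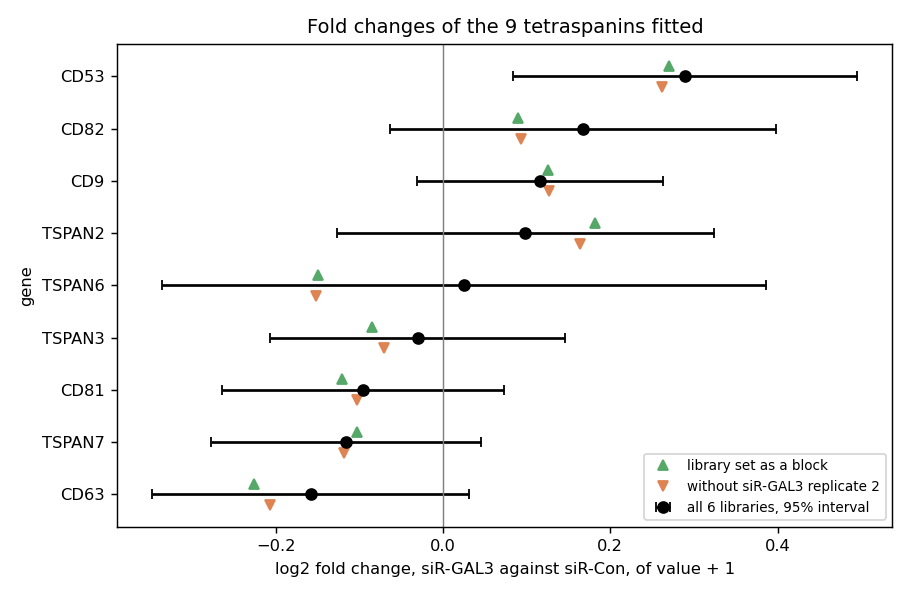
Log2 fold change of value + 1, siR-GAL3 against siR-Con, for the 9 tetraspanins fitted. Black points and bars are the estimate and 95% interval over all 6 libraries, green triangles the fit blocked on library set and orange triangles the fit without siR-GAL3 replicate 2. The interval of CD53 alone lay above 0, and TSPAN6 changed sign in both other fits. Both leave siR-GAL3 replicate 2, alone in its library set, out of the group comparison, so they are not separate checks.

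Within the library sets, the directions of the 9 genes were the same in both sets that held both groups. CD9, CD53, CD82 and TSPAN2 were higher in the siR-GAL3 library than in each control of its set, and CD63, CD81, TSPAN3, TSPAN6 and TSPAN7 were lower. Over all genes fitted the directions were the same in both sets for 43.7%, with 20.7% higher and 23.0% lower. CD151 was lower in the first set and between its controls in the second. The comparison leaves out siR-GAL3 replicate 2 and rests on 1 siR-GAL3 library per set, so it has no test of its own. CD9 was 45.1 against 41.6 in the first set and 45.2 against a control mean of 41.1 in the second. A block for the set also takes siR-GAL3 replicate 2, alone in its set, out of the group comparison. It is thus no check separate from the fit without that library. When limma took the set as a block, 3 of the 9 genes had an unadjusted p under 0.05, against 13.8% of all genes fitted. They were CD53 (log2 fold change 0.27), CD63 (-0.23) and TSPAN2 (0.18). No adjusted p was under 0.05, against 1.25% of all genes fitted, and the smallest was that of CD63 (0.144).

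CD9 was then set against the other tetraspanins of the same library. Its share of the summed level of the 10 genes was 14.4%, 15.2% and 14.3% in siR-Con and 16.3%, 15.8% and 16.9% in siR-GAL3. The share was higher in each siR-GAL3 library, whereas that of CD63 went from 22.8% ± 0.679 to 20.9% ± 1.03 (SD, n = 3 each). The ratio of CD9 to CD81 was 0.467 ± 0.0202 in siR-Con and 0.543 ± 0.0314 in siR-GAL3, and that of CD9 to CD63 was 0.643 ± 0.0320 and 0.781 ± 0.0643 (SD, n = 3 each). The ratio of CD9 to TSPAN7 went from 1.67 ± 0.0583 to 1.97 ± 0.0976 (SD, n = 3 each). These ratios did not overlap between the groups. A ratio shows unequal levels of both genes and not which of them differed.

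The log2 ratio of CD9 to another tetraspanin was without overlap for 3 of the 8 others fitted, CD63, CD81 and TSPAN7. Each of these ratios was higher in siR-GAL3. Over all other genes fitted 37.4% were without overlap, 35.6% with the ratio of CD9 to the gene higher in siR-GAL3, so the share among tetraspanins was near the background. The difference in log2 fold change was 0.27 between CD9 and CD63, 0.23 between CD9 and TSPAN7 and 0.21 between CD9 and CD81. It was 0.02 between CD9 and TSPAN2, and the ratio of these genes overlapped between the groups (1.40 ± 0.150 and 1.42 ± 0.105, SD, n = 3 each). CD53 and CD82 had larger fold changes than CD9, by 0.17 and 0.05 on the log2 scale. Against the mean of all 9 other members, log2 CD9 was 1.66 ± 0.0455 higher in siR-Con and 1.75 ± 0.0814 higher in siR-GAL3 (SD, n = 3 each). These groups overlapped, since siR-GAL3 replicate 2 was within the control range, and no test was made because the genes were chosen with results known.

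**Figure D4:**
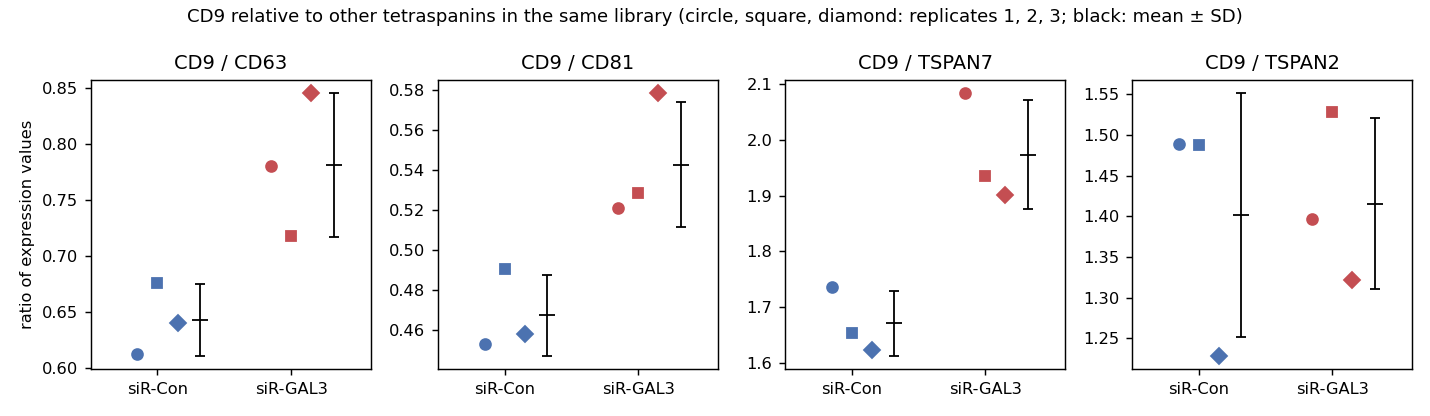
Ratio of the CD9 expression value to that of CD63, CD81, TSPAN7 and TSPAN2 in the same library (blue, siR-Con; red, siR-GAL3; circle, square and diamond, replicates 1, 2 and 3; black, mean ± SD; axes do not start at 0). The ratios to CD63, CD81 and TSPAN7 were higher in each siR-GAL3 library, and those to TSPAN2 overlapped.

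Of 23 further tetraspanin genes, 19 were in the matrix, where they summed to between 25.4 and 30.3 in a library, and 8 had a mean of at least 1. Their log2 fold changes were centred near 0, with 4 above and 4 below 0, and none had an unadjusted p under 0.05 in limma. The smallest p values were those of TSPAN9, known from platelets, TSPAN31, TSPAN12, a co-receptor in norrin signalling, and TSPAN14, which escorts the protease ADAM10 to the surface. TSPAN9 was 1.81 ± 0.202 in siR-Con and 1.54 ± 0.0526 in siR-GAL3 and TSPAN31 was 4.13 ± 0.103 and 4.85 ± 0.688 (SD, n = 3 each), both without overlap. TSPAN12 and TSPAN14 had log2 fold changes of -0.08 and -0.07. Without siR-GAL3 replicate 2 that of TSPAN31 was 0.09 against 0.18 with it, and that of TSPAN12 was -0.13. TSPAN12 was then the only 1 of the 8 with an unadjusted p under 0.05 (limma, unadjusted p = 0.0369, adjusted p = 0.273), against 16.3% of all genes fitted. CD37, a leukocyte tetraspanin named here after its values were seen, was 0.533 ± 0.0965 in siR-Con and 1.11 ± 0.156 in siR-GAL3 (SD, n = 3 each). Its groups did not overlap, but its mean over all libraries was under 1 and it was not fitted. Without the filter its log2 fold change was 0.46 (limma, adjusted p = 0.249). In the rat assembly GRCr8, used for names only, TSPAN32 and TSPAN18 are the protein-coding genes next to CD81 and CD82. TSPAN32 was 0.0642 ± 0.0232 and 0.0680 ± 0.0254, and TSPAN18 was 0.673 ± 0.0222 and 0.645 ± 0.114 in siR-Con and siR-GAL3 (SD, n = 3 each), below their neighbours.

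Known partners of tetraspanins were examined from a list of 17 genes, of which 12 were fitted. Their median log2 fold change was -0.11, with 4 above and 8 below 0, and none had an unadjusted p under 0.05 in limma. The median without siR-GAL3 replicate 2 was -0.02, with 5 above and 7 below 0. In limma 2 of 12 then had an unadjusted p under 0.05, both higher in siR-GAL3, against a similar share of all genes fitted (16.3%). These were CLDN11 (log2 fold change 0.30) and CD47, a receptor that restrains phagocytosis, named here after its values were seen. CD47 was 0.03 on the log2 fold scale with that library and 0.19 without it (limma, unadjusted p = 0.841 and 0.00329, adjusted p = 0.930 and 0.0905). The immunoglobulin-superfamily partners of CD9 and CD81 lay on opposite sides of 0. IGSF8 was 7.55 ± 0.166 in siR-Con and 8.35 ± 0.515 in siR-GAL3, and PTGFRN was 1.92 ± 0.0780 and 1.70 ± 0.101 (SD, n = 3 each), both without overlap, with adjusted p values of 0.589 and 0.590 in limma. ITGB1, the integrin beta chain shared by many tetraspanin complexes, had a log2 fold change of -0.11 and ADAM10, a protease that cleaves cell-surface proteins, one of -0.13. CLDN11, the partner of TSPAN3 and itself a myelin gene, was 62.5 ± 2.70 in siR-Con and 75.2 ± 10.9 in siR-GAL3 (SD, n = 3 each), without overlap, with a log2 fold change of 0.26 (limma, unadjusted p = 0.0528, adjusted p = 0.577). CD44, a hyaluronan receptor, and ITGA7, a laminin-binding integrin chain, each had a log2 fold change of -0.19. Several of these values rested on siR-GAL3 replicate 2, since without it the log2 fold change was -0.03 for ITGB1, -0.08 for ITGA7 and 0.02, with the sign turned, for ADAM10.

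Of 15 genes that form and release vesicles 13 were fitted, 9 of them with a log2 fold change above 0 and 4 below, with a median of 0.03 and none at an unadjusted p under 0.05 in limma. Without siR-GAL3 replicate 2 there was 1 of 13, against 16.3% of all genes fitted. It was PDCD6IP, which encodes the adaptor ALIX and is named here after its values were seen, with a log2 fold change of 0.11 (limma, unadjusted p = 0.0463, adjusted p = 0.298). SDCBP, which encodes syntenin, the adaptor that binds CD63, was 23.6 ± 1.04 in siR-Con and 21.5 ± 1.20 in siR-GAL3 (SD, n = 3 each). It was lower in each siR-GAL3 library, as CD63 was, with a log2 fold change of -0.13 (limma, adjusted p = 0.590). TSG101, of the sorting complex ESCRT-I, was 10.99 ± 0.203 and 12.5 ± 0.927 (SD, n = 3 each), higher in each siR-GAL3 library, with a log2 fold change of 0.17 (limma, unadjusted p = 0.0565). VPS4B, the ATPase that takes the sorting complexes apart, and CHMP4B, a filament subunit, had log2 fold changes of 0.12 and 0.17, and that of CHMP4B was 0.08 without siR-GAL3 replicate 2.

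The genes whose pattern over the 6 libraries was most like that of CD9 were ERI3, QARS1, EIF2S2, COTL1 and UBA2, among 2549 genes that were compared. Likeness was the root mean square difference between log2(value + 1) profiles, each centred on its own mean. It was 0.0172 for ERI3, 0.0188 for QARS1, 0.0211 for EIF2S2, 0.0211 for COTL1 and 0.0283 for UBA2, against 0.0629 for the spread of CD9 itself. QARS1 encodes a transfer RNA synthetase, EIF2S2 a translation initiation factor subunit, COTL1 an actin-binding protein and UBA2 a subunit of the SUMO-activating enzyme. None of the 10 tetraspanins could be among them by the rule. The genes were picked for likeness, so their values give no separate test.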

How the data were processed

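RNA-seq of 6 libraries was deposited as 1 matrix of expression values. The authors aligned reads with STAR, counted them per gene with HTSeq and estimated FPKM, and the matrix was then treated for batch effects, standardized and adjusted for differences inside groups. The deposited values are thus on a linear scale, some are below 0, and the spread between replicates is what that adjustment left. The labels name ribosomal RNA depletion and the paper's supplement selection of polyadenylated RNA. The genome build is not given in the sources used here. No reads could be recovered, so no counting error is given.

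Values below 0 were set to 0 and log2(value + 1) was fitted with limma 3.58.1 (R 4.3.3, intensity trend) for genes averaging 1 or more (8495), with Benjamini-Hochberg adjustment over all of them. The script was tested on simulated data. Permutation tests and ratios were made in Python 3.11.15. The planned unit was FPKM, and the limma fit was kept. The 10 genes, the lists and the library sets were chosen with earlier results of these data known. Beyond the 10 genes, those named were the 4 with the smallest p of each list, 5 known partners, the marker with the highest mean and the 5 genes most like CD9. RBFOX3, TMEM119, GPR17, TSPAN18, TSPAN32 and the genes said in the text to be named after their values were seen fall outside this rule. Alternatives were other pseudocounts, filters, scalings and variance models, blocks for the replicate number or library set, values without log transformation, and each library left out. Protein sequences were not analysed here.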

Additional observations from a re-analysis of the deposited data

How the results depend on the processing

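No alternative gave any of the 9 tetraspanins fitted an adjusted p under 0.05, and the lowest over all of them was 0.144, for CD63 when blocked on library set. The number with an unadjusted p under 0.05 was 1 over all libraries, 2 without a filter, 0 with a mean of at least 10 (which leaves out CD53, 10.8% of all genes), 3 when blocked on library set, 3 without log transformation (8.66% of all genes), and between 0 and 4 with each library left out (between 4.05% and 16.3% of all genes). It was 4 without siR-GAL3 replicate 2 (CD9, CD53, CD63 and TSPAN6) and 0 without siR-Con replicate 1 (6.09%) or 3 (4.05%). Without log transformation the 3 were CD9, CD53 and TSPAN7. CD9 then had an unadjusted p of 0.00437 and an adjusted p of 0.305 in limma, against 0.104 and 0.589 in the main fit. Of 132 log2 fold changes of single genes under alternatives, 128 kept their direction. Changing the filter or variance model, blocking on replicate number and leaving out genes with a value below 0 cannot change an estimate. Part of this count was therefore fixed in advance. The log2 fold change of TSPAN3 turned to 0.011 without siR-Con replicate 1 and to 0.00016 without siR-GAL3 replicate 3. That of TSPAN6 turned to -0.15 when blocked on library set and -0.15 without siR-GAL3 replicate 2. Both of these TSPAN6 fits leave siR-GAL3 replicate 2 out of the group comparison. Fits that dropped 1 library gave log2 fold changes between -0.071 and 0.011 for TSPAN3 and between -0.15 and 0.15 for TSPAN6. CD9 against the mean of the others differed by 0.10 on the log2 scale, between 0.07 and 0.14 with each library left out, and by 0.18 over the members with a mean of at least 10. The median of the partners, -0.11, was -0.01 when blocked on library set. The log2 fold change of LGALS3 lay between -3.88 and -1.35 with each library left out and was -4.03 with a pseudocount of 0.1, and its adjusted p was above 0.05 in each fit that held it.

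The deviations of same-numbered libraries from their group means correlated at -0.170, -0.0699 and 0.0441. These deviations are what the authors' adjustment inside groups left, so they cannot decide whether the replicate numbers pair the libraries. By equal values, the libraries numbered 1 shared a set, as did those numbered 3, and those numbered 2 did not. With the replicate number as a block, 6 of all genes fitted had an adjusted p under 0.05 and 543 an unadjusted one, against 0 and 736, and the number of tetraspanins with an unadjusted p under 0.05 was still 1, with 0 by adjusted p. Every value rests on 3 libraries per group at unknown depth.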
